A study of Mus musculus with 6 samples.

Results

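The cluster of miR-199 and miR-214 was followed in small extracellular vesicles (sEV) that cochlear explants released into culture medium. Its members were taken by name from the deposited table of reads per mature miRNA, and all 6 were present among its 810 rows: mmu-miR-199a-3p, mmu-miR-199b-3p, mmu-miR-199a-5p, mmu-miR-199b-5p, mmu-miR-214-3p and mmu-miR-214-5p. The rows of mmu-miR-199a-3p and mmu-miR-199b-3p list the same mature sequence, so their reads were added in each library and are called miR-199-3p, which left 5 distinct members among 809 miRNAs. The explants were the sensory epithelium of cochleae of ICR mice at postnatal day 3 (male and female mice entered the study), cleared of spiral ganglion, and each library held the sEV of about 80 explants. In the Cis-sEV group (n = 3) the explants had received 50 µM cisplatin for 48 h, and in the Ctrl-sEV group (n = 3) the same volume of PBS. Both groups shared the culture medium with serum freed of vesicles by ultracentrifugation, and the labels name no allele or transgene. The Cis-sEV libraries had a depth of 1722359 to 1794175 miRNA reads, against 528952 to 718597 in Ctrl-sEV, and 586 to 603 miRNAs were detected in the former against 258 to 311 in the latter. The labels name cochlear explants as the source. All of 10 listed epithelial and hair cell miRNAs were present. Together they took 109045 to 128346 CPM (reads per 1000000 miRNA reads) in Cis-sEV and 79246 to 87097 CPM in Ctrl-sEV. No other tissue was measured, so these levels describe the libraries and do not check their source.

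A miRNA is cut from a hairpin in its precursor RNA, which yields one product from the 5′ arm and one from the 3′ arm, and it guides silencing mainly through its seed. Mir199a-2 and Mir214 are processed from one long noncoding RNA, Dnm3os, whose transcription in developing mesenchyme is driven by Twist1. These miRNAs are best known from fibroblasts, skeletal and heart tissue, and miR-214 and miR-199a products are widely used as marks of mesenchymal cells. In the cochlea, mesenchymal cells line the underside of the basilar membrane on which the sensory epithelium rests. In bulk vesicle RNA, fewer vesicles from a cell type and less of the miRNA per vesicle cannot be told apart.

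The mature sequences are shown because the whole reading of the cluster turns on which of them can be told apart. They were taken from the deposited table, 5′ to 3′, with the seed (bases 2 to 8) in capitals.
mmu-miR-199a-3p: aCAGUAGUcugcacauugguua
mmu-miR-199b-3p: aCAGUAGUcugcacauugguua
mmu-miR-199a-5p: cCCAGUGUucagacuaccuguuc
mmu-miR-199b-5p: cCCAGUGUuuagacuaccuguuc
mmu-miR-214-3p: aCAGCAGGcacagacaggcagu
mmu-miR-214-5p: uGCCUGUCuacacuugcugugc

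The 3p products of miR-199a and miR-199b did not differ in any of their 22 bases. Their 5p products, 23 bases long, differed at 1 base, C10U, counted from 1 at the 5′ end with miR-199a-5p first, and shared a seed. The 6 rows thus held 5 sequences and 4 seeds, and no other miRNA in the table carried any of these seeds. RefSeq (GRCm38.p6) listed 5 of the 6 rows with the same sequence and had no entry for miR-199b-5p.

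The hairpins are shown with both arms in capitals, to place the 2 products of each precursor, and come from RefSeq with the build GRCm38.p6.
Mir199a-2: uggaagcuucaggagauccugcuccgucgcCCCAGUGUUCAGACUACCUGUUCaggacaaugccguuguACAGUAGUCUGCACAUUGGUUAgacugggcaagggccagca
Mir199a-1: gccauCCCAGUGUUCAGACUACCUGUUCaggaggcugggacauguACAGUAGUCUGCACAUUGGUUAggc
Mir199b: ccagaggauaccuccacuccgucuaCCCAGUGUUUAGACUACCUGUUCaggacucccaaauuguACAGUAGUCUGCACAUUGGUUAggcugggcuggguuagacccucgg
Mir214: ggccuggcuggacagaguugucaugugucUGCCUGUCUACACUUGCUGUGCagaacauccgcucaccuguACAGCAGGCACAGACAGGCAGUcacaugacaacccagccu

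In GRCm38, Mir199a-2 lies at chr1:162217814-162217923 and Mir214 at chr1:162223368-162223477, both on the plus strand and 5444 bases apart. Both fall in exons of Dnm3os, in every one of its annotated transcripts that spans them (5 and 3), and on the opposite strand within introns of Dnm3. Mir199a-1, which yields the same mature products as Mir199a-2, lies at chr9:21496495-21496564 on the minus strand within introns of Dnm2, a gene of the plus strand. Mir199b lies at chr2:32318460-32318569 on the plus strand within introns of Dnm1, a gene of the minus strand. All 3 of these protein-coding hosts encode dynamins, the GTPases that pinch off membrane vesicles. Reads of miR-199a-3p and miR-199a-5p can come from both Mir199a genes, and reads of miR-199-3p from all 3 miR-199 genes.

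Which of the identical rows held the miR-199-3p reads changed from library to library, while their sum did not follow that change. In Cis-sEV the row miR-199a-3p held 574, 6515 and 345 reads, and in Ctrl-sEV 580, 1 and 781 reads. The row miR-199b-3p held 8133, 29 and 8244 reads in Cis-sEV, and 0, 489 and 130 in Ctrl-sEV. The share of the pair's reads on the row miR-199a-3p was thus 6.59%, 99.6% and 4.02% in Cis-sEV and 100%, 0.204% and 85.7% in Ctrl-sEV, so that each group had libraries at both extremes. The sum was 8707, 6544 and 8589 reads in Cis-sEV and 580, 490 and 911 reads in Ctrl-sEV, with no overlap between the groups. These reads are not scaled to depth, which was greater in every Cis-sEV library. Before scaling, every member of the cluster stood apart in this way. The share of all miRNAs that did so before scaling was not counted, so nothing particular to the members is read from it. The 5p arms, which can be told apart by their differing base, showed no such exchange: miR-199a-5p held more reads than miR-199b-5p in each of the 6 libraries.

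**Figure D1:**
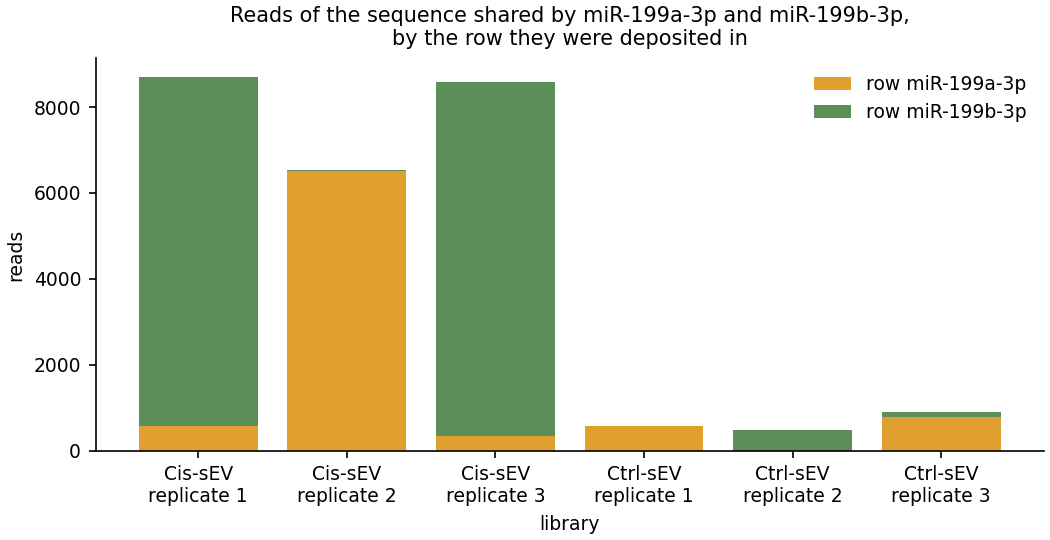
Reads (linear axis) of the sequence shared by miR-199a-3p and miR-199b-3p in each of the 6 libraries, stacked by the row of the table that held them. The row that holds most of the bar changes within both groups, while the whole bar is at least 6544 reads high in Cis-sEV and at most 911 in Ctrl-sEV. Reads are not scaled to depth, which was greater in Cis-sEV.

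miR-199-3p was the one member called higher in Cis-sEV, at about 3 times its Ctrl-sEV level after scaling. It is the product shared by all miR-199 genes, and its best-studied targets include the mRNAs of mTOR and of the receptor MET. Its level was 4860, 3799 and 4787 CPM with cisplatin and 1074 (replicate 1), 682 (replicate 2) and 1722 CPM (replicate 3) with PBS. The 95% Wilson intervals, which cover counting error only since PCR copies were not told apart, ran from 3709 to 4963 CPM over the Cis-sEV libraries and from 624 to 1838 CPM over the Ctrl-sEV libraries. All Cis-sEV libraries therefore lay above all Ctrl-sEV libraries, with 4482 ± 593 CPM (SD, n = 3) against 1160 ± 525 CPM (SD, n = 3). It ranked between 40 and 45 among all miRNAs in the Cis-sEV libraries and between 59 and 80 in the Ctrl-sEV libraries.

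The groups were compared with edgeR's quasi-likelihood test on all 352 miRNAs with enough reads, with library sizes scaled by TMM factors, and a miRNA counted as called where its adjusted p did not exceed 0.05 and its log2 fold change was 1 or more in either direction. miR-199-3p rose by 1.59 on the log2 scale (standard error 0.35, adjusted p = 0.0116 from edgeR), against a median of 0.45 over the tested miRNAs. That test called 30.4% of the tested miRNAs, 23.9% higher and 6.53% lower, so 1 call among 5 members was close to the background. Of the 352 tested, 53 had 0 reads in every Ctrl-sEV library. They passed the filter through Cis-sEV alone and could only be called higher. With total miRNA reads in place of TMM factors the calls moved from 84 higher and 23 lower to 100 higher and 12 lower. Other scalings moved the median of the tested miRNAs to between 0.22 and 0.80, and relative to that median miR-199-3p stood 1.13 to 1.15 higher under each of the 5 scalings. Tested as deposited, neither row of the pair was called, while 30% of the deposited rows tested were, 23.5% higher and 6.52% lower. miR-199a-3p had a log2 fold change of 0.37 with a standard error of 1.76 (adjusted p = 0.927 from edgeR) and miR-199b-3p one of 3.07 with one of 2.01 (adjusted p = 0.335 from edgeR). The sum was not called without Ctrl-sEV replicate 1 (log2 fold change 1.57, adjusted p = 0.0633), and was called with each other library left out, at adjusted p values from 0.0102 to 0.0304.

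**Figure D2:**
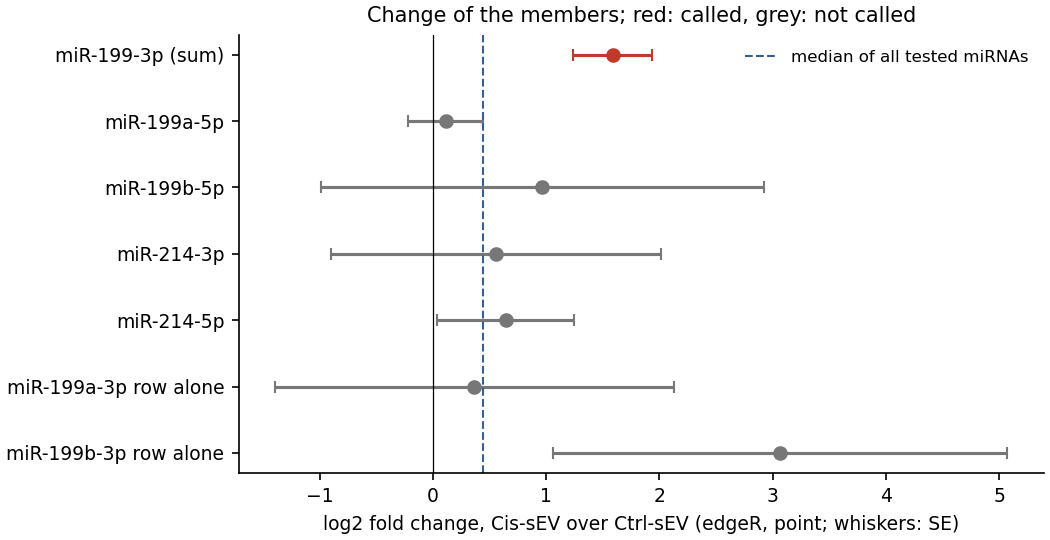
Log2 fold change of Cis-sEV over Ctrl-sEV from edgeR for the 5 members and, at the bottom, for the rows miR-199a-3p and miR-199b-3p tested singly, with whiskers of 1 standard error. Only the summed miR-199-3p is called (red, 1.59), and the dashed line marks the median of the tested miRNAs at 0.45.

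Neither 5p product of miR-199 was called with all libraries. miR-199a-5p, whose known targets include the collagen receptor gene Ddr1 and Hif1a, had 1604, 1562 and 1944 reads in Cis-sEV and 196, 638 and 483 in Ctrl-sEV. Scaled to depth these were 895, 907 and 1084 CPM against 363, 888 and 913 CPM, and the groups overlapped, since Ctrl-sEV replicate 3 lay above both of the lower Cis-sEV libraries. EdgeR gave it a log2 difference of 0.11 with a standard error of 0.33 (adjusted p = 0.855), and its sign changed with the scaling: -0.13 under upper-quartile scaling and 0.42 when scaled by total reads. Relative to the median of the tested miRNAs it lay 0.33 to 0.40 lower under all 5 scalings.

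miR-199b-5p, the product that only Mir199b yields, was the scarcest member. It had 96, 98 and 89 reads in Cis-sEV, or 53.6, 56.9 and 49.6 CPM. In Ctrl-sEV it had 51 reads in replicate 2, or 71.0 CPM, the highest level of the 6 libraries, and 0 reads in replicates 1 and 3, where 0 reads allow up to 5.56 and 5.67 CPM (3 reads). EdgeR gave it a log2 difference of 0.97 with a standard error of 1.96 (adjusted p = 0.793). Without Ctrl-sEV replicate 2 it had 0 reads in Ctrl-sEV and passed the filter through Cis-sEV alone. It could then only be called higher, and was (adjusted p = 0.0292 from edgeR). With 3 reads over the remaining Ctrl-sEV libraries as the floor, Cis-sEV stood at least 19.0-fold above those libraries. That fold is no lower limit on the difference between the groups, since the library left out lay above every Cis-sEV library.

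Neither arm of miR-214 was called. miR-214-3p, known as a repressor of Ezh2, had 640, 573 and 654 reads in Cis-sEV, or 357, 333 and 365 CPM. In Ctrl-sEV it had 0 reads in replicate 1, 141 reads or 196 CPM in replicate 2, and 405 CPM in replicate 3, so that one Ctrl-sEV library lay above all Cis-sEV libraries and another held no read. The Cis-sEV libraries were close to each other at 351 ± 16.7 CPM (SD, n = 3), against 200.3 ± 202 CPM (SD, n = 3) in Ctrl-sEV. EdgeR gave it a log2 difference of 0.56 with a standard error of 1.46 (adjusted p = 0.849), and -0.09 without Ctrl-sEV replicate 1, the library with 0 reads.

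miR-214-5p, the other arm of the hairpin, had 597, 869 and 790 reads in Cis-sEV and 144, 70 and 136 in Ctrl-sEV. Its levels were 333, 505 and 440 CPM against 267, 97.4 and 257 CPM, with every Cis-sEV library above every Ctrl-sEV library. In CPM 2 of the 5 members, miR-199-3p and miR-214-5p, were separated in this way, against 45.7% of the tested miRNAs (a further 8.81% had every Cis-sEV library below). After TMM scaling miR-214-5p overlapped and 1 member remained separated, against 37.5%. EdgeR gave it a log2 difference of 0.64 with a standard error of 0.61 (adjusted p = 0.539), and it stayed positive, between 0.33 and 1.04, under all alternatives run.

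**Figure D3:**
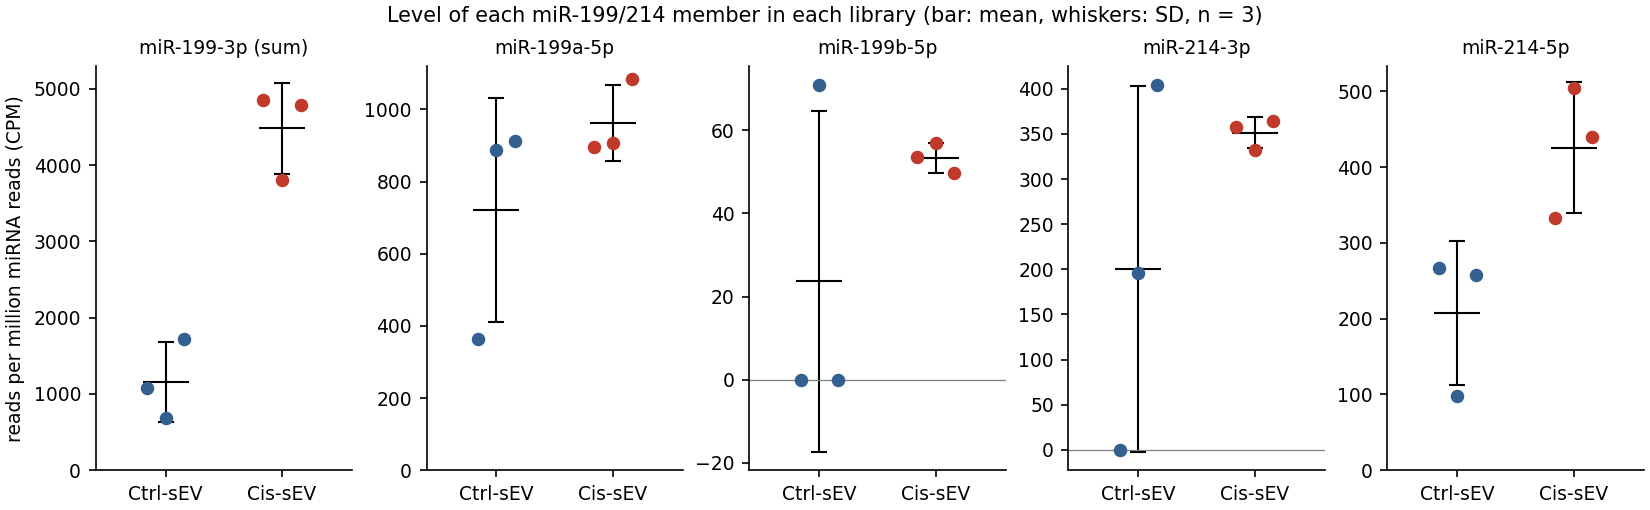
Level of each member in CPM (linear axes, one per member) in the 3 Ctrl-sEV (blue) and 3 Cis-sEV (red) libraries, with the mean and SD in black. The groups stand apart for miR-199-3p and miR-214-5p and overlap for the others, and the points at 0 CPM are miR-199b-5p in 2 Ctrl-sEV libraries and miR-214-3p in 1.

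The balance of the arms within a library does not depend on how libraries are scaled. For miR-199, the reads of the 3p product were 5.12, 3.94 and 4.22 times those of both 5p products together in Cis-sEV, and 2.95, 0.711 and 1.89 times in Ctrl-sEV, with 0.5 read added to each count. The lowest ratio in Cis-sEV thus lay above the highest in Ctrl-sEV. On the log2 scale it was 2.14 ± 0.20 (SD, n = 3) against 0.66 ± 1.05 (SD, n = 3), a difference of 1.48. A two-sided exact permutation test gave p = 0.1, which is the lowest that 3 libraries against 3 allow, and an adjusted p of 0.4 over the 4 ratios tested. Without Ctrl-sEV replicate 2 the difference was 0.90, and with each other library left out it was at most 1.93. Among the 59 miRNAs with both arms tested, the 3p/5p ratio of 28.8% was higher in every Cis-sEV than in every Ctrl-sEV library, and that of 10.2% lower. Reads of both arms in Ctrl-sEV were not required for this share. Where an arm had no read in a library, the ratio rests on the 0.5 read added.

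For miR-214, the 3p/5p ratio was 1.07, 0.660 and 0.828 in Cis-sEV and 2.01 and 1.57 in Ctrl-sEV replicates 2 and 3. In Ctrl-sEV replicate 1 it was 0.00346, which rests on the 0 reads of miR-214-3p and the 0.5 read added. The log2 difference of 1.92 (two-sided exact permutation test, p = 1, n = 3 in each group) turned to -1.09 without that library. Both arms of miR-214 thus had like numbers of reads in Cis-sEV, where miR-199-3p had more reads than its 5p arms in each library.

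**Figure D4:**
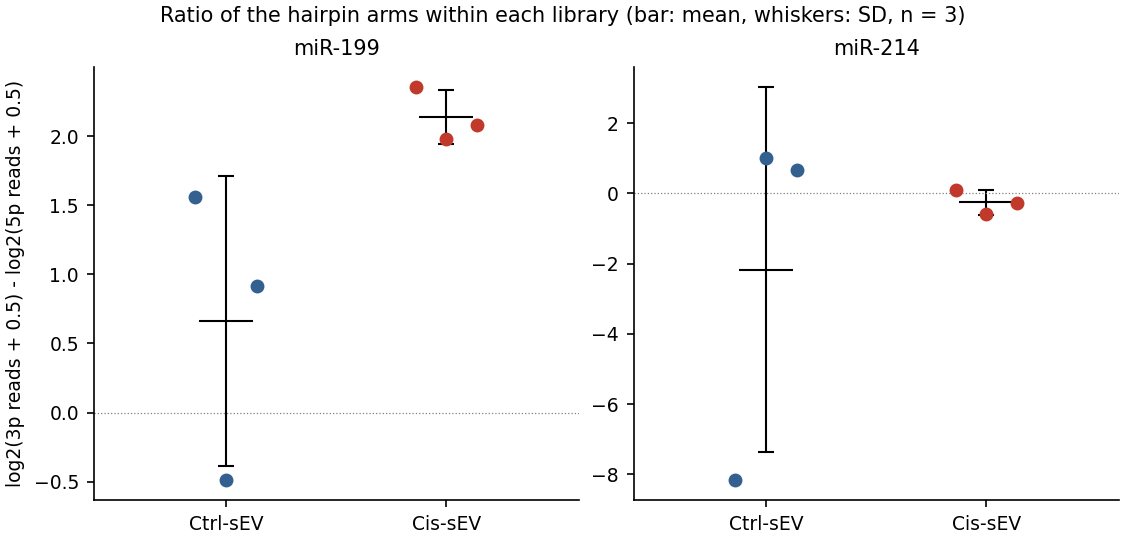
Log2 ratio of 3p to 5p reads within each library for miR-199 (left; 3p sum over both 5p products) and miR-214 (right), with 0.5 read added to each count, the mean and the SD; the vertical scales differ. For miR-199 the Cis-sEV points lie between 1.98 and 2.36, above the highest Ctrl-sEV point of 1.56, and for miR-214 the low Ctrl-sEV point at -8.17 is the library with 0 reads of miR-214-3p.

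Levels of miR-199-3p and miR-214-3p were also compared with each other. Mir199a-2 and Mir214 share a transcript, but reads of miR-199-3p can come from all miR-199 genes. The ratio therefore does not compare products of that transcript alone. miR-199-3p exceeded miR-214-3p by 13.6, 11.4 and 13.1 times in Cis-sEV and by 3.47 and 4.25 times in Ctrl-sEV replicates 2 and 3. In Ctrl-sEV replicate 1 the ratio, 1161, rests on the added 0.5 read. The log2 difference between the groups was -1.02 (two-sided exact permutation test, p = 1, n = 3 in each group) and 1.72 without that library. miR-199a-5p exceeded miR-199b-5p by 16.6, 15.9 and 21.7 times in Cis-sEV and by 12.4 times in Ctrl-sEV replicate 2, below all Cis-sEV libraries. In Ctrl-sEV replicates 1 and 3 the ratios, 393 and 967, rest on the 0.5 read added to 0 reads of miR-199b-5p, so no difference between the groups is given.

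Together the 5 members accounted for 0.650%, 0.560% and 0.673% of the miRNA reads with cisplatin, against 0.170%, 0.193% and 0.330% with PBS. The groups did not overlap, with a ratio of the means of 2.71 (p = 0.1 by exact two-sided permutation, again the lowest possible, n = 3 in each group). miR-199-3p made up 67.8 to 74.8% of the members' reads with cisplatin and 35.3 to 63.0% with PBS, and miR-199a-5p 13.8 to 16.2% and 21.3 to 45.9%.

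The order of levels was the same in both groups by mean CPM: miR-199-3p, miR-199a-5p, miR-214-5p, miR-214-3p and miR-199b-5p. The listed mature products are 22 or 23 bases long, so CPM was not scaled to length. Read lengths, and how evenly products of different sequence enter a library, were not measured. The order is therefore one of reads and not of molecules. In Cis-sEV neighbours in this order did not overlap, except miR-214-5p and miR-214-3p. In Ctrl-sEV only miR-199a-5p and miR-214-5p were separated, and miR-199a-5p exceeded miR-199-3p in replicate 2.

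Other miRNAs of connective tissue were described from a list of 15, of which 14 were in the table and 12 had enough reads. 3 were called higher, 0 lower and 9 not called, with a median log2 fold change of 0.84 beside 0.45 over the tested miRNAs, so the share called was close to the 23.9% of all tested miRNAs called higher. miR-143-3p, the most abundant of them and typical of smooth muscle and fibroblasts, reached 4587 ± 251 CPM with cisplatin and 2102 ± 252 CPM with PBS (SD, n = 3 each). Its log2 difference of 0.77 had a standard error of 0.16 (adjusted p = 0.0107 from edgeR) and was short of the limit of 1. miR-21a-5p, raised in activated fibroblasts and many other cells, had 858 ± 251 and 562 ± 304 CPM (SD, n = 3) and was not called (adjusted p = 0.730 from edgeR). The called members were the cartilage miRNA miR-140-5p, with 434, 381 and 265 reads against 1, 2 and 3, and miR-195a-5p and miR-497a-5p, which come from one precursor RNA and had 0 reads in Ctrl-sEV. With so few Ctrl-sEV reads, all of these called members passed the filter through Cis-sEV alone and could only be called higher. Taking 3 reads over all Ctrl-sEV libraries as the floor, miR-195a-5p (129, 44 and 87 reads in Cis-sEV) stood at least 29.2-fold higher. By that floor miR-497a-5p (23, 23 and 35 reads) stood at least 9.09-fold higher. The floor allows for counting error only, and Ctrl-sEV libraries differed by more than that (chi-square per degree of freedom 98.5 to 112). These folds are therefore no lower limits on the difference between the groups. Dropping Cis-sEV replicate 1 or Cis-sEV replicate 2 ended the call of miR-140-5p (adjusted p up to 0.141 from edgeR), while its log2 fold change stayed between 5.29 and 6.14 with any 1 library left out. The list had 1 call when Cis-sEV replicate 1 or Cis-sEV replicate 2 was dropped and 6 when Ctrl-sEV replicate 3 was, and 2 with DESeq2 and with limma-voom. The list did not move as a whole. miR-10b-5p (-2.24), miR-10a-5p (-1.65) and miR-29a-3p (-0.24) had negative log2 fold changes, none of them called, and the other tested members had positive ones. The summed level of the list was 5647 to 6529 CPM in Cis-sEV and 2551 to 3929 CPM in Ctrl-sEV.

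Markers of other cell types were read against the same background of 23.9% called higher and 6.53% lower. Of the 10 epithelial and hair cell miRNAs 3 were called higher (miR-96-5p, miR-200a-3p and miR-200b-3p) and 0 lower, with a median log2 fold change of 0.53. The number called was 0 without Ctrl-sEV replicate 2 and 1 without Ctrl-sEV replicate 1. The most abundant, miR-183-5p and miR-429-3p, had log2 fold changes of -0.48 and 0.34 and were not called. Of 5 neuronal miRNAs 4 were tested and 1 was called higher, miR-124-3p (109, 25 and 88 reads against 0). By the same floor, which allows for counting error only, miR-124-3p stood at least 24.9-fold higher. It too passed the filter through Cis-sEV alone. miR-9-5p and miR-128-3p, the most abundant neuronal ones, were not called, at log2 fold changes of 0.15 and 1.63. Their list summed to 2086 to 2259 CPM in Cis-sEV and 987 to 1451 CPM in Ctrl-sEV. Of the blood, leukocyte and serum miRNAs 6 of 8 were in the table, 4 were tested and 3 were called lower in Cis-sEV (the liver miRNA miR-122-5p at -2.78, and the red cell miRNAs miR-451a at -1.15 and miR-486a-5p at -3.47). The row miR-486a-5p is part of a pair of identical sequences, and 3 were also called lower with all such pairs summed. The number called lower was 3 with DESeq2 and 2 with total miRNA reads in place of TMM factors. It was 1 with limma-voom and 1 with the replicate number added to the model. miR-150-5p was not called (log2 fold change -0.87, adjusted p = 0.259 from edgeR). miR-223-3p, not tested, was higher in Cis-sEV, at 10.3 ± 7.63 against 3.71 ± 3.21 CPM (SD, n = 3). The summed level of the list was 2654 to 2877 CPM in Cis-sEV and 7861 to 10500 CPM in Ctrl-sEV. miR-451a was not called without Cis-sEV replicate 2, Cis-sEV replicate 3, Ctrl-sEV replicate 1 or Ctrl-sEV replicate 2. The leukocyte products miR-142a-3p and miR-142a-5p had no row in the table, and miR-144-3p had 2 reads in 1 library. What part these lists and the difference in depth have in the change of miR-199-3p was not tested.

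The miRNAs whose pattern was most like that of the members were found by the root-mean-square difference of log2(TMM-scaled CPM + 1) over the 6 libraries, each profile centred on its own mean. Closest to miR-199-3p among 351 others were miR-181c-5p (0.17), miR-218-5p (0.22), miR-872-5p (0.29), miR-27b-3p (0.31) and miR-200b-3p (0.31), the last a miRNA of epithelia. miR-214-5p stood in place 20 (0.58) and miR-199a-5p in place 71 (0.96). Closest to miR-214-3p were miR-374b-5p (0.41), miR-154-5p (0.44), miR-467e-5p (0.56), miR-335-3p (0.90) and miR-141-3p (0.97), the first 4 with 0 reads in Ctrl-sEV replicate 1 and the last with 1 read there. miR-199-3p stood in place 143 (2.90) from miR-214-3p.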

How the data were processed

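Small RNA of 18 to 30 nt had been isolated on a gel and sequenced on the DNBSEQ platform by the authors, who used Bowtie2 against the build GRCm38.p6 for alignment, AASRA and cmsearch for annotation with miRBase first in precedence, and deposited whole-number read counts per mature miRNA with no normalization. How a read on several identical sequences was assigned is not given in the sources used here. The deposited group averages were not used, and 0 columns of single samples were left out.

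Reads of miR-199a-3p and miR-199b-3p were summed. All miRNAs that passed filterByExpr were then tested with edgeR 4.0.16 (R 4.3.3, TMM, Benjamini-Hochberg adjustment), with DESeq2 1.42.0 and limma 3.58.1 as alternatives, and the fits were tested on simulated data. The filter asked for 15 reads in all and a minimum count of 10. That count is applied as a CPM at the median library size, to be reached in at least as many libraries as the smaller group holds. Standard errors are the log2 fold change divided by the square root of F. Ratios and shares were compared with exact permutation tests (scipy 1.17.1). Annotation was GENCODE M21 (GRCm38).

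The members, lists and tests were chosen with earlier results of these data known. Named miRNAs were the members, the 2 most abundant and any called of each list, some others of the lists, and the 5 nearest profiles. The libraries of a group are described as biological replicates and differed by more than counting error (chi-square per degree of freedom 41.6 to 112 for each pair), but which litters or cultures they came from is not given in the sources used here. Depth was 528952 to 1794175 miRNA reads.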

Additional observations from a re-analysis of the deposited data

How the results depend on the processing

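miR-199-3p kept its direction under all 17 alternatives and was called under 15. It was not called as the deposited row miR-199a-3p alone (log2 fold change 0.37), where the pair's reads are divided, nor without Ctrl-sEV replicate 1, and ranged from 1.29 to 2.06 with 1 library left out. miR-199a-5p changed sign, at -0.041 with DESeq2 size factors, -0.042 with DESeq2, -0.00093 with TMMwsp factors and -0.13 with upper-quartile factors, and ranged from -0.17 to 0.37 with 1 library left out. With 1 library left out miR-199b-5p ranged from 0.38 to 9.04 (the latter fitted against 0 reads), miR-214-3p from -0.091 to 1.63, the log2 3p/5p ratio of miR-214 from -1.09 to 3.50 and the log2 ratio of miR-199-3p to miR-214-3p from -2.47 to 1.72. With limma-voom miR-199b-5p stood at 3.68 and miR-214-3p at 2.83, neither called. The cause of these changes was not tested. The number of members called was 0 for the rows as deposited and 0 to 2 with 1 library left out. The number of all miRNAs called, 107, was 45 with limma-voom and 58 to 170 with 1 library left out (58 when Cis-sEV replicate 1 was dropped, 60 when it was Cis-sEV replicate 2, and 170 when it was Ctrl-sEV replicate 3). The labels number the replicates of both groups alike. Deviations of libraries with the same number correlated at -0.10 to 0.00, and those of other numbers at -0.13 to 0.16. With so few libraries this cannot show whether the numbers mark pairs. With the replicate block 33 miRNAs were called and 1 member, miR-199-3p (log2 fold change 1.69, adjusted p = 0.0019 from edgeR), while miR-199b-5p stood at 4.92 and was not called, and 0 of the 12 connective tissue miRNAs were called. Leaving out a library leaves 2 against 3, for which the smallest exact p is 0.2.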

Other observations

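The table held 4 pairs of rows with an identical mature sequence, and in the other 3 the reads were also divided unevenly between libraries. The row mmu-miR-486a-5p held 59.9%, 62.2% and 93.5% of its pair's 142, 143 and 139 reads in Cis-sEV and 82.2%, 68.5% and 56.6% of 444, 626 and 159 reads in Ctrl-sEV. For mmu-miR-669a-5p and mmu-miR-669p-5p, all 34, 37 and 53 reads of the Cis-sEV libraries stood in the former row, and the 11 reads of Ctrl-sEV replicate 1 in the latter. For mmu-miR-466b-3p and mmu-miR-466p-3p, Cis-sEV replicate 3 held 38 reads in the former row and Cis-sEV replicate 2 held 6 in the latter. A count of miRNAs found in one group only, taken over such rows, counts a name and not a sequence: mmu-miR-669p-5p has reads in Ctrl-sEV only, while its sequence has reads in both groups.

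The absence of miR-214-3p from Ctrl-sEV replicate 1 was not singular. With 0 reads in 1 library and at least 50 reads in both others of its group, a limit chosen after seeing the data, 9 miRNAs were missing from Ctrl-sEV replicate 1, 6 from Ctrl-sEV replicate 2 and 3 from Ctrl-sEV replicate 3. No miRNA (0) met this limit in any of the 3 Cis-sEV libraries, which were deeper.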
